A study of Mus musculus with 7 samples.

Results

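Mitogen-activated protein (MAP) kinase cascades carry growth factor, cytokine and stress signals to the nucleus through layers of kinases, in which a MAP4K or a small GTPase activates a MAP3K, the MAP3K activates a MAP2K and the MAP2K activates a MAPK. Dual-specificity phosphatases (Dusp) remove the activating phosphates from MAPKs, and Sprouty (Spry) and Spred proteins restrain the pathway near the receptor and at Ras. In muscle, p38 MAPK activity promotes the differentiation of myoblasts, and ERK signalling downstream of growth factors drives their proliferation. The m6A peaks on mRNAs of these genes are described here in injured muscle and in C2C12 myoblasts. A gene was taken as a member when its listed symbol began with Map2k, Map3k, Map4k, Mapk or Dusp and a further digit or letter, or with Spry or Spred and a digit. Across both tables, 39 of 6392 listed genes were members.

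In m6A MeRIP-Seq, mRNA fragments captured with an antibody against N6-methyladenosine (the immunoprecipitate, IP) are sequenced beside the input they were taken from, and stretches with more IP than input reads are called as peaks. The muscle libraries came from C57BL/6 mice given tamoxifen on 5 consecutive days and then cardiotoxin (CTX) in the tibialis anterior (TA) muscle, at day 2 after injury. METTL3 conditional knockout (cKO) mice carried Pax7CreERT2 with METTL3 flox/flox, and control (CTL) mice carried Pax7CreERT2 with METTL3 wt/wt, with 1 IP and 1 input library per genotype. The age of the mice was not given in the sources used here. METTL3 is the m6A methyltransferase, and this Cre acts only in Pax7-expressing cells, that is, in muscle stem cells and their progeny, whereas the labels name the source as muscle and the cell type as muscle stem cell. C2C12 is a mouse myoblast line, with 2 IP libraries and 1 input library. The labels call the genotype of the C2C12 IP libraries knockout and that of the input normal, and they mention differentiation in horse serum without saying whether these libraries came from differentiated cells.

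The muscle table holds 5412 peaks with 1 set of values per peak for both genotypes together, and every peak in it had passed the authors' test between the genotypes. A gene missing from it may therefore still carry m6A. The C2C12 list holds 5433 peaks with positions and annotation and no peak height. Neither table allows a comparison between replicates, so values are given as descriptions, and depth is unknown because neither table holds read counts.

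The listed markers were of several cell types. Among markers of myogenic cells, 3 of 4 had a muscle peak. The fold enrichment of IP over input was 39 for Pax7, 13.5 for Myod1 and 6.82 for Myog, an early differentiation marker. A muscle peak was also listed for 1 of 5 myofibre markers (Des, 2.12-fold), 1 of 4 macrophage markers (Ptprc, 3.28-fold), 2 of 3 fibroblast markers (Pdgfra, 49.7-fold, and Col1a1, 3.52-fold at its strongest peak) and 1 of 3 endothelial markers (Cdh5, 155-fold). Cdh5 and Pdgfra were thus listed at higher fold enrichments than Pax7. Of all protein-coding genes, 16.9% had a muscle peak and 17.6% a C2C12 peak. The marker counts, over 5 or fewer genes each, were not tested against these shares. In C2C12, a peak was listed for 2 of 4 myogenic markers (Pax7 and Myod1), 1 of 5 myofibre markers, 3 of 3 fibroblast markers and 0 of the macrophage and endothelial markers. The fibroblast markers thus do not separate fibroblasts from myoblasts in these tables. Member peaks in the muscle table thus cannot be assigned to a cell type, and the part of each cell type in them was not tested.

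Of the 85 annotated protein-coding genes that follow the symbol rule, 26 (30.6%) had a peak in the muscle table, where 16.9% of all protein-coding genes had one. In C2C12, 28 of 85 (32.9%) had a peak, beside 17.6% of all protein-coding genes. A peak in both tables was found for 15 (17.6%), beside 7.32% of all protein-coding genes. Map3k20, listed in muscle, had a C2C12 peak under an older symbol and is left out of the C2C12 and shared counts. The C2C12 shares of all protein-coding genes were matched by transcript, then symbol, and can include such genes. These 15 were 57.7% of the members in muscle and 53.6% of those in C2C12, and for all protein-coding genes the corresponding shares were 43.2% and 41.4%. The median length of the 85 genes was 21.2 kb and that of all protein-coding genes 17.2 kb. Peaks are called only in transcribed genes, and the shares were not set against expressed genes, since neither table holds expression values. No peak was listed in either table for 46 of the 85 genes (54.1%), beside 72.7% of all protein-coding genes.

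The members were next sorted by the terminal module of the cascade they belong to. Of the 6 genes of the p38 module, 3 had a muscle peak (Map2k3, Mapk12 and Mapk14) and 2 a C2C12 peak (Map2k3 and Mapk14). Of the 5 genes of the JNK module, Map2k7 had a peak in both tables and Map2k4 in C2C12, while the JNK genes themselves, Mapk8, Mapk9 and Mapk10, had none in either. Mapk7, which encodes ERK5, and Mapk6, which encodes the atypical kinase ERK3, were listed in both tables. The 3 genes named for MAPK-activated kinases, Mapkapk2, Mapkapk3 and Mapkapk5, had no listed peak. Other kinases that act below the MAPKs are counted further below. Of all protein-coding genes, 16.9% had a muscle peak, 17.6% a C2C12 peak, 7.32% both and 72.7% neither. Counts over so few genes, here and by role below, were not tested against these shares. No contrast between modules is read from them. These modules were laid out after the listings were seen.

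At the top of the cascade, 1 of 5 genes with a Map4k symbol was listed. Roles were set by symbol, so kinases with other current symbols, such as Mink1 and Taok1, which had muscle peaks, are not in these counts. Map4k4, a kinase upstream of JNK, had 3 muscle peaks at distant places in the gene. Its 5′UTR peak at chr1:39901063-39901212 had a fold enrichment of 11.6 and 1 GGAC site, the most common form of the motif that METTL3 methylates. Its 3′UTR peak at chr1:40024664-40025113 had a fold enrichment of 7.37 and 4 GGAC sites. The peak in the coding sequence (CDS) had a fold enrichment of 1.45, the lowest of all 40 member peaks, and no site. In C2C12, Map4k4 had 2 peaks, both annotated to an intron.

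Of 18 genes with a Map3k symbol, 4 had a peak in muscle and 7 a C2C12 peak under such a symbol, with Map3k3 in both. Map3k20 also had a C2C12 peak under an older symbol, which is not in these counts. Map3k3 (MEKK3, upstream of p38 and ERK5) had the highest fold enrichment of any member. Its 3′UTR peak of 1044 bp at chr11:106153956-106154999 was enriched 258-fold, rank 314 of the 5412 peaks, and held 4 GGAC sites. Map3k1 (MEKK1, an activator of the JNK pathway) followed with a CDS peak at chr13:111755321-111756677, enriched 247-fold over 2 exon blocks with 8 sites. The 3′UTR peak of the same gene was enriched 7.95-fold and held 3 sites, so the CDS peak was 31.1 times as enriched.

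Map3k20 (ZAK, a kinase that responds to stalled ribosomes) differed from these genes. It had 3 muscle peaks in its 3′UTR, at fold enrichments of 5.77, 3.18 and 2.99, and none held a GGAC site. Of the 9 members with several muscle peaks, it was the only gene without a site in any of them, beside 100 of all 995 such genes. In C2C12 the gene is listed under its older symbol B230120H23Rik, with 1 peak of 341 bp in an exon, and it was not counted as a member there. Map3k12, a kinase of stressed neurons, had the remaining muscle peak of this group, at a fold enrichment of 14 with 2 sites.

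The C2C12 peaks of MAP3K genes included those of kinases without a muscle peak. Map3k4 (MEKK4, which GADD45 proteins activate) had 3 peaks, 2 in exons within 1 kb of each other and 1 in the 3′UTR. Map3k11, a mixed-lineage kinase upstream of JNK, had a 5′UTR peak of 277 bp and an exon peak of 582 bp, the third longest of all member C2C12 peaks. Single peaks were listed for the related kinases Map3k9 and Map3k10, for Map3k7 (TAK1, a kinase of cytokine signalling) and for Map3k14 (NIK, of the noncanonical NF-κB pathway).

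Of 7 MAP2K genes, Map2k3 and Map2k7 were listed in both tables. Map2k3, which activates p38, had 1 muscle peak of 628 bp in its 3′UTR, at chr11:60951945-60952572, with a fold enrichment of 43 and 5 GGAC sites. Its C2C12 peak also lay in the 3′UTR. Map2k7, which activates JNK, had 3 muscle peaks, all annotated to the 3′UTR. The strongest, at chr8:4245744-4246312, was enriched 50.3-fold and held 7 sites in 569 bp, or 12.3 per 1000 bp. The 150 bp peak downstream of it was enriched 4.2-fold and held 1 site. The remaining peak, enriched 4.53-fold, was listed under an additional gene identifier, ran over 3 exon blocks and ended 1542 bp beyond Map2k7 in the neighbouring gene Tgfbr3l. It shared a site at position 4245785 with the strongest peak and is not an independent observation. In C2C12, Map2k4 had a 3′UTR peak of 544 bp.

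Of 13 MAPK genes, 4 had a muscle peak. Mapk14 (p38α, required for myoblast differentiation) had a 3′UTR peak of 1195 bp at chr17:28747180-28748374, with a fold enrichment of 26.5 and 9 GGAC sites. Mapk12 (p38γ, abundant in skeletal muscle) was close to it, with a 3′UTR peak at a fold enrichment of 24.6 and 5 sites. Mapk7 was enriched 26.7-fold with 3 sites, in an exon peak whose midpoint lay 407.5 bp from the start of the gene. These 3 peaks were close in fold enrichment, but the 5 MAPK peaks, with those of Mapk6 below, ran from 1.9 to 115.

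Mapk6 had the widest range within a gene among the members. Its CDS peak of 808 bp, at chr9:75397610-75398417, was enriched 115-fold and its 3′UTR peak of 150 bp 1.9-fold, a ratio of 60.5. The strong peak held a single GGAC site, whose adenosine is at position 75398069, so at 1.24 sites per 1000 bp it had the lowest density of any member peak with a site. The weak peak held none and had the highest p-value of the member peaks, 0.00062.

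Of 8 genes named for proteins that bind MAP kinases, 3 had a muscle peak. Mapk8ip3 (JIP3, a scaffold of JNK signalling) had a CDS peak that began 30 bp after the start of the gene, with a fold enrichment of 4.42 and 1 site. A peak at chr17:24892153-24892853 is also listed under Mapk8ip3, as 3′UTR, with a fold enrichment of 44.5 and 4 sites. It lies 4653 bp beyond the RefSeq end of Mapk8ip3 and overlaps Eme2, so the gene it belongs to is uncertain. Mapk1ip1l had a 5′UTR peak that began 22 bp after the gene start, enriched 3.21-fold, with 2 sites, and a 3′UTR peak enriched 11.1-fold with none. Mapkbp1, a JNK-binding protein, had a CDS peak enriched 15.3-fold with 3 sites. In C2C12, Mapk1ip1l had an exon peak and a 3′UTR peak, and Mapk8ip3 an intron peak.

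Of the 10 phosphatases that act mainly on MAPKs, 4 had a muscle peak, 4 a C2C12 peak and 6 a peak in either table. All 4 muscle peaks were above the median fold enrichment of the table, 12.9, as was a peak of 21 of the 26 members in muscle. Dusp8, which acts on JNK and p38, was enriched 157-fold in a CDS peak of 1405 bp over 3 exon blocks, the longest member peak, with 9 GGAC sites. Dusp6, the cytoplasmic phosphatase of ERK, was enriched 47.8-fold in a CDS peak at chr10:99263291-99264460 with 4 sites. Dusp4, a nuclear phosphatase of MAPKs, had a 3′UTR peak at chr8:34818673-34819269 enriched 27.1-fold with 3 sites. Dusp1, an immediate-early gene whose product acts on p38 and JNK, was enriched 25.4-fold with 4 sites.

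In C2C12, Dusp4, Dusp5, Dusp6 and Dusp7, all phosphatases with ERK among their substrates, had 1 peak each. The Dusp5 peak of 883 bp was the longest member peak there and the only one placed downstream of its gene. The Dusp6 peak of 202 bp lay in an exon, and those of Dusp4 and Dusp7 lay in the 3′UTR.

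Of the 14 other Dusp genes, 5 had a muscle peak. Dusp27, a muscle gene of the Dusp family that lacks phosphatase activity, had 4 peaks, the most of any member, within chr1:166098178-166101326. Toward the end of the gene the fold enrichments were 4.65, 5.33, 10.5 and 141 in turn. The weakest of the 4 held no GGAC site and the others 5, 4 and 6. Dusp3 (VHR, which dephosphorylates ERK and JNK) had 2 peaks in its 3′UTR. That at chr11:101973290-101974005 was enriched 34.6-fold with 5 sites, and the 240 bp peak further downstream was enriched 6.55-fold with none. Dusp22, Dusp19 and Dusp26 had 1 peak with 1 site each, at fold enrichments of 56.7, 19.4 and 17.4. In C2C12, Dusp3 and Dusp27 had a 3′UTR peak, and Dusp11, which acts on the 5′ end of RNA, and Dusp18 an exon peak.

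Of 4 Sprouty genes, Spry4 had a muscle peak in its 3′UTR, enriched 36.9-fold with 1 site, and Spry1 and Spry2 had C2C12 peaks. Spry2, an inhibitor of receptor tyrosine kinase signalling, had a 5′UTR peak 64 bp from the start of the gene and an exon peak of 615 bp, the second longest member peak in C2C12. Spry1, which muscle stem cells need to return to quiescence, had an exon peak of 273 bp. Spred1 and Spred2, which inhibit signalling from Ras, were listed in both tables. In muscle, Spred1 was enriched 3.72-fold in its 3′UTR with 4 sites in 299 bp, the highest density of any member peak at 13.4 per 1000 bp. Spred2 was enriched 12.6-fold without a site.

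**Figure D1:**
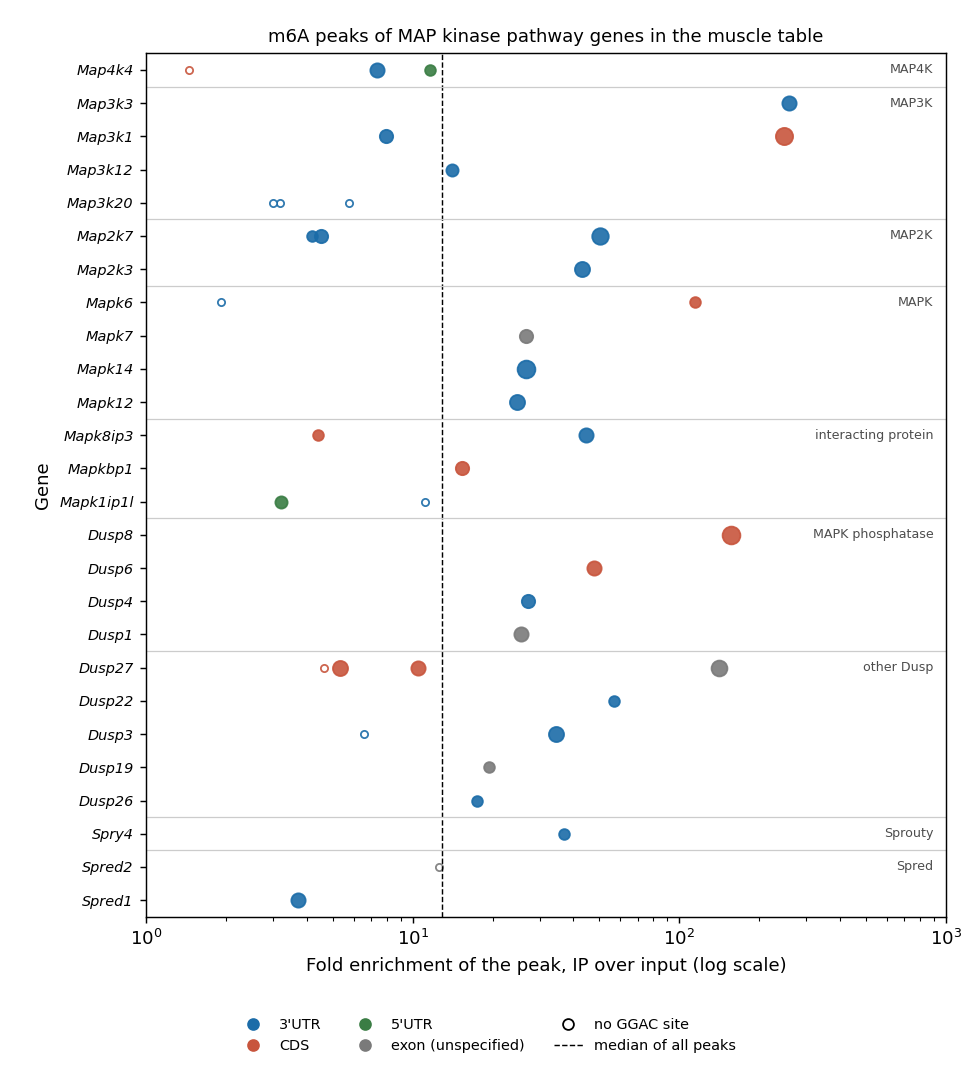
Fold enrichment of IP over input (log axis) of each of the 40 muscle peaks of the 26 members, 1 row per gene, grouped by role. Colour gives the annotation, larger points hold more GGAC sites, open points hold none, and the dashed line is the median of all 5412 peaks (12.9); the 9 open points all lie left of that line.

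Taken over all 40 peaks, the members resembled the table in position and strength. Their median fold enrichment was 14.7 (95% order-statistic interval 7.37 to 26.7), beside 12.9 for all peaks. With each gene represented by its strongest peak, it was 26.9 (17.4 to 47.8), beside 19.4 for all genes taken in the same way. The median length was 375 bp (270 to 569), beside 360 bp. The 3′UTR held 23 of 40 member peaks, or 57.5% (95% Wilson interval 42.2 to 71.5, counting error only), beside 48.0% of all peaks. The CDS held 10 (25%, 14.2 to 40.2), beside 31.9%. For 9 of the 40 peaks (22.5%, 12.3 to 37.5) the p-value is listed as 0, beside 17.2% of all peaks, and the others ran up to that of the weak Mapk6 peak.

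Of the 40 member peaks, 31 held 1 or more GGAC sites, which is 77.5% (62.5 to 87.7), beside 70.6% of all peaks. The 40 member peaks held 114 listed sites, at 5.71 per 1000 bp (95% Poisson interval 4.71 to 6.85), beside 4.63 per 1000 bp over all peaks. Sites of 1 peak share their sequence, so this interval is too narrow as an error over genes. The site in both the strongest and the additional Map2k7 peak was counted in each. With only peaks inside the RefSeq span of their gene, the member density was 5.635 per 1000 bp. Neither its interval nor the matching density over all peaks was computed. By role, the density ran from 3.02 per 1000 bp in the Sprouty peak to 10.1 in the MAP2K peaks, which include the overlapping Map2k7 peak.

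The fold enrichment was then compared between member peaks with and without a site. The 31 with a site had a median fold enrichment of 25.4 (11.6 to 43), and the 9 without had 4.65 (1.9 to 11.1). Over all peaks these medians were 21.9 and 5.89. All 9 member peaks without a site lay below the median of the table, from 1.45 to 12.6, as did 75.9% of the 1592 such peaks in the table. They were also short, with a median of 181 bp beside 511 bp for those with a site, and over all peaks the medians were 211 and 509 bp. The 9 peaks belonged to 7 genes, Dusp27, Dusp3, Map3k20, Map4k4, Mapk1ip1l, Mapk6 and Spred2.

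Several peaks were listed for 9 of 26 members in muscle (34.6%), beside 25% of all genes. The strongest peak held the most sites, alone or tied, in 6 of these 9, and in 66.4% of the 995 genes with several peaks. The exceptions with sites were Map4k4 and Mapk1ip1l, in which a weaker peak held more. The ratio of the strongest to the weakest peak ran from 1.93 in Map3k20 to 60.5 in Mapk6, with a median of 10.1, beside 4.21 over all such genes.

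In C2C12, the 36 member peaks had a median length of 280 bp (256 to 314), beside 286 bp for all peaks. The exon category, which covers coding sequence, held 18 of the 36 (50%), beside 52.6% of all peaks. The 3′UTR held 12, or 33.3% (20.2 to 49.7), beside 25.9%. An intron was given for 3 peaks, those of Map4k4 and Mapk8ip3, or 8.33% (2.88 to 21.8), beside 12.4% of all peaks. Several peaks were listed for 6 of 28 members (21.4%), beside 25.8% of all genes in the list, namely Map3k11, Map3k4, Map4k4, Mapk1ip1l, Mapk7 and Spry2.

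For the 15 members in both tables, the place of the peaks along the gene was compared as the genomic distance of the peak midpoint from the gene start. Muscle distances were measured from RefSeq starts on GRCm38 and C2C12 distances were taken as listed, because most C2C12 positions lie outside GRCm38 gene spans and no coordinates were converted. The start used for a gene can differ between the tables. The closest muscle and C2C12 peaks lay within 200 bp of each other in 6 of 15 members (40%), beside 36.1% of 1536 shared genes, and within 1000 bp in 10 (66.7%), beside 59.9%.

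The closest match was that of Map2k3, with 20204 bp in muscle and 20211 bp in C2C12. In Dusp27, the C2C12 peak at 29288 bp fell beside the strongest of the 4 muscle peaks, at 29315.5 bp, and not beside the weaker ones. In Mapk6, the C2C12 exon peak at 12036 bp fell beside the strong CDS peak at 12003 bp, and in Map2k7 the C2C12 peak at 7217 bp fell beside the strongest 3′UTR peak at 7287.5 bp. Dusp4 matched within 121.5 bp, Map3k3 within 393 bp and Mapk14 within 452.5 bp, each in the 3′UTR in both tables. In Map4k4, a C2C12 intron peak at 96093 bp lay 110.5 bp from the weakest muscle peak, which is annotated to the CDS.

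Other shared members had peaks at different places. Mapk7 had its muscle peak at 407.5 bp and its 3 C2C12 peaks at 2811, 3232 and 3843 bp, all annotated to exons. The midpoints of the Dusp6 peaks lay at 644 bp in muscle, in a peak of 985 bp over 2 exon blocks, and at 1480 bp in C2C12. Those of Spred1 differed by 722.5 bp, with the 3′UTR annotated in muscle and an exon in C2C12. In Dusp3, Mapk1ip1l and Spred2 the closest peaks lay 2189, 2218.5 and 2689.5 bp apart, and in Mapk8ip3 21102.5 bp apart.

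**Figure D2:**
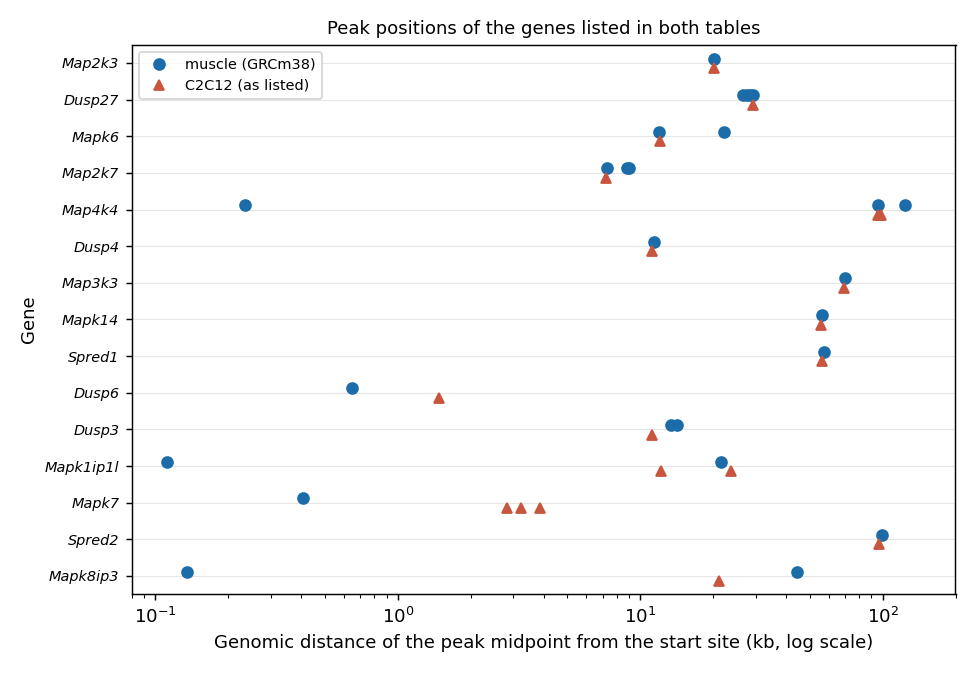
Genomic distance of each peak midpoint from the gene start (kb, log axis) for the 15 members with a peak in both tables, ordered by the difference between the closest muscle (circles) and C2C12 (triangles) peaks. The difference grows from 7 bp in Map2k3 at the top to 21102.5 bp in Mapk8ip3 at the bottom; the log axis shows equal differences smaller at greater distances.

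Genes that feed into the cascade or act below it were taken from a list of 94, of which 49 (52.1%) had a peak in muscle, 42 (44.7%) in C2C12 and 23 in both, beside 16.9%, 17.6% and 7.32% of all protein-coding genes. This list was drawn up with earlier results of these data known, so nothing is read from its high shares. Upstream, 6 of 13 growth factor receptors had a muscle peak, with Igf1r enriched 507-fold and Insr 490-fold, and 7 had a C2C12 peak. Of 12 adaptors and exchange factors, 6 had a muscle peak and 7 a C2C12 peak. Ras proteins and their GTPase activators were listed for 8 of 11 genes in muscle, where Rasa1 was enriched 692-fold without a GGAC site, and for 1, again Rasa1, in C2C12. Of the 7 kinases and scaffolds reported here between Ras and the MAP2K layer, 2 had a muscle peak (Ksr1 and Iqgap1) and 2 a C2C12 peak (Shoc2 and Iqgap1).

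Stress and cytokine inputs were listed for 12 of 19 genes in muscle and 11 in C2C12. Gadd45g, an activator of MEKK4, was enriched 596-fold with 9 sites, and Tab1, a partner of TAK1, 345-fold with 8 sites, and both were listed in C2C12 too. Below the MAPKs, 3 of 8 target kinases had a muscle peak and 0 a C2C12 peak. Of 24 target transcription factors and effectors, 12 had a muscle peak and 14 a C2C12 peak. The AP-1 genes Jun, Junb, Jund and Fosl2, which MAPK signalling induces or activates, were listed in both, with their strongest muscle peaks enriched 184, 91.4, 95.7 and 219-fold. The muscle regulators Mef2a, Mef2c and Mef2d, targets of p38 and ERK5, were listed in muscle at 3.78, 3.82 and 4.08-fold and not in C2C12. Some listed pathway genes had a strong peak without a GGAC site. Beside Rasa1, the strongest peaks of Nlk (99.9-fold), Rap1b (74.5-fold), Rps6ka3 (71.1-fold), Ksr1 (46.2-fold) and Ets1 (15.1-fold) held none, and all lay above the median of the table.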

How the data were processed

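The authors called the peaks and deposited 1 table per system. Submitters' processing notes name TopHat, MACS2 and mm10, which is GRCm38. Only 9.3% of C2C12 peaks lay inside the GRCm38 span of their gene, beside 95.6% of muscle peaks. The build of the C2C12 list is therefore not settled. For each muscle peak the authors deposited the fold enrichment (a ratio of IP over input), the p-value and the GGAC positions. The authors' columns for the difference between genotypes (log2 fold, p and FDR) were not used. Columns of single samples left out numbered 0. Members and lists were chosen with earlier results of these data known. Genes named were members in both tables or with 2 or more peaks, the 5 highest and 5 lowest fold enrichments and the 3 longest C2C12 peaks; others were named after their values were seen, to complete a role. Some genes of the pathway are not reported here. Genes were matched to RefSeq (GRCm38.p6) by symbol in muscle (3808 of 3980) and by transcript, then symbol, in C2C12 (3967 of 3970). Listed site positions were read as the adenosine of GGAC, checked on 69 of 69 sites in RefSeq promoter sequence. Python 3.11.15, pandas 2.3.3, numpy 2.4.6, scipy 1.17.1 and matplotlib 3.10.9 were used. Interval functions were tested on simulated data.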

Additional observations from a re-analysis of the deposited data

How the results depend on the processing

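Of 46 recalculations of 10 results, 41 stayed within the interval of the reported value or within 1.5 times the reported count. With the strongest peak of each gene, the share of member muscle peaks with a GGAC site was 88.5% and the median fold enrichment 26.9, beside 74.1% and 19.4 over all genes. With peaks no weaker than the table's median of 12.9-fold, 21 member peaks were counted, the share was 100%, the median fold enrichment 36.9 and the median length 628 bp, beside 85.8%, 47.9 and 660 bp over all such peaks. Both alternatives select strong peaks by construction. Searching older symbols gave 32 muscle and 31 C2C12 members. Leaving out the additional Map2k7 peak, or peaks reaching past their RefSeq gene, was chosen after seeing the data. No paired analysis was possible because each table gives 1 set of values over its libraries. No read depth is known, so no detection limit can be given.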
